A study of Homo sapiens with 11 samples.

Results

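Cytoplasmic ribosomal protein (RP) genes encode the protein part of the ribosome outside mitochondria. They were chosen by symbol alone, as RPL or RPS with a number and an optional suffix A, L or X, together with RPLP0, RPLP1, RPLP2 and RPSA. This rule found 81 of the 28252 genes listed for RT4 cells and 79 of the 26237 gene promoters listed for BEAS-2B cells. Of the 81, 32 belong to the small subunit, 46 to the large subunit and 3 (RPLP0, RPLP1 and RPLP2) to the P stalk, the arm of the large subunit that recruits elongation factors. RPL10L, RPL39L, RPL3L and RPS27L are paralogs of other members, and RPS9 and RPS18 were not analysed here in BEAS-2B cells.

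RP mRNAs are among the most abundant in growing cells, and most of the proteins are needed in equal amounts to assemble a ribosome. Most of these mRNAs start with a terminal oligopyrimidine (TOP) tract, a C followed by a run of C or T. Through it mTOR signalling and LARP1 control their translation together. Because they are high and are needed in all growing cells, several of them, such as RPLP0, RPL13A and RPL32, serve as reference genes for qPCR. H3K4me3 is a histone mark found at the promoters of active genes, RP genes among them.

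RT4, a human line from a non-invasive bladder tumour, was studied by RNA-Seq in 3 groups of 2 libraries. UT cells had no nickel, Ni-E cells had 100 µM NiCl2 for 6 weeks, and Ni-W cells were kept for 2 further weeks without nickel. In each group the sample titles mark 1 library as a duplicate, called here the duplicate library, and the other is called the first library. BEAS-2B, an immortalized line from human bronchial epithelium, was studied by H3K4me3 ChIP-Seq with a single library per condition, and its differences were therefore not tested. Its UT cells had no nickel, its Ni-E cells had 100 µM NiCl2 for 6 weeks, and its Ni-W cells had the same exposure before nickel was removed. Its Ni-W cells were grown from a single colony for more than 6 months without nickel per the methods of the study, and so are 1 clone, while part of the labels name 2 weeks. The libraries held 17075833 to 27736454 estimated counts in RT4 and 28385724 to 37493963 reads in BEAS-2B. Of 12 urothelial markers, 11 were over 1 TPM (a share of transcripts corrected for length) in all 6 RT4 libraries, with KRT20 the exception, while none of 6 fibroblast, 4 leukocyte, 4 bronchial and 3 endothelial markers was. Of 5 basal epithelial markers, 3 (KRT5, TP63 and CD44) were over 1 TPM in all 6 RT4 libraries, while KRT6A and KRT14 stayed below 1 TPM. Expression of the bronchial markers in BEAS-2B cells was not analysed here.

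Promoter sequences of 64 of the 81 members were found in RefSeq (GRCh38.p14). The following 7 are shown because these members carry the results below. RPS27 and RPS27L are a pair of paralogs, RPS6, RPLP0 and RPL13A are members whose RNA fell in one of the fits, and RPL4 and RPL21 had the highest H3K4me3 scores in Ni-W cells. Each runs from 80 bases before the annotated start through the first 15 bases of the transcript. Capitals mark the TOP tract and any of 6 promoter motifs.
RPS27 (chr1:153990682-153990776, + strand): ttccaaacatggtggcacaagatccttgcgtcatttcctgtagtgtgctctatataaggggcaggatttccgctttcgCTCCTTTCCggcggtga
RPS27L (chr15:63157463-63157557, - strand): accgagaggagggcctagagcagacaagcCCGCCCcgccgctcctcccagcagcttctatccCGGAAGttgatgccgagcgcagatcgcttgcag
RPS6 (chr9:19380222-19380316, - strand): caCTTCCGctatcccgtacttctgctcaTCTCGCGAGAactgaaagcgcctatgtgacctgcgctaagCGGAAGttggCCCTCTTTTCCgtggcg
RPLP0 (chr12:120201097-120201191, - strand): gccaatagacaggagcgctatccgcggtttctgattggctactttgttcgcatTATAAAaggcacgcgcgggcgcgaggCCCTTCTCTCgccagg
RPL13A (chr19:49487528-49487622, + strand): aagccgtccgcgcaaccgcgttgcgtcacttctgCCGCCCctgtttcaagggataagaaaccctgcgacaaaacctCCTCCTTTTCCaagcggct
RPL4 (chr15:66504841-66504935, - strand): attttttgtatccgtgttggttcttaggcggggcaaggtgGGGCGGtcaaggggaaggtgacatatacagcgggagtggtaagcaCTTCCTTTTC
RPL21 (chr13:27251478-27251572, + strand): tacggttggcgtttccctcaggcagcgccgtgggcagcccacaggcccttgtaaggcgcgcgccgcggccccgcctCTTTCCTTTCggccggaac

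A TOP tract, searched as a C with at least 4 further C or T within 5 bases of the start, was found in 50 of the 64 members (78.1%) and in 21.1% of all 27305 RefSeq promoters. RPS27 has such a tract, while its paralog RPS27L has none. The other members without one were RPL6, RPL9, RPL10, RPL10L, RPL13, RPL15, RPL17, RPL27, RPS4X, RPS15, RPS26, RPS27A and RPS29. In the 250 bases before the start, on either strand, CGGAAG (the core of ETS factor sites) was present in 57.8% of the members and 16.8% of all promoters. The motif CTCGCGAGA was present in 6 members (9.38%), RPS6 and RPL4 among them, and in 0.634% of all promoters. The GC box GGGCGG was present in 56.2% against 42.3%, and the TATA box TATAAA in 9.38% against 11.1%. The E-box CACGTG was found in 4.69% against 6.49%, and the YY1 motif AAGATGG in 1.56% against 3.77%. Each motif was counted on its own, so that a match that overlaps another counts for both.

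RP genes held a large part of the RT4 transcriptome in all 6 libraries. Of the 20 genes with the highest mean TPM, 13 were members, as were 51 of the top 100, and 57 of the 81 had a mean over 1000 TPM. In UT cells the members held 21.7% and 24.1% of the TPM total (first and duplicate library). In Ni-E cells they held 21.2% and 22.6%, and in Ni-W cells 18.2% and 22.2%. The means were 22.9% ± 1.63 (SD, n = 2) in UT, 21.9% ± 1.02 in Ni-E and 20.2% ± 2.81 in Ni-W, so that the groups overlapped. Within the first libraries and within the duplicates alike the share was highest in UT and lowest in Ni-W, and the first Ni-W library had the lowest share of all. Small and large subunit genes kept nearly the same proportion, with a small-to-large ratio of summed TPM of 0.779 to 0.815 over the 6 libraries. TPM and CPM (a share of counts) are shares of the RNA in a library, and in these bulk samples fewer cells and less RNA per cell cannot be told apart.

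Among the highest members, RPS27, a zinc finger protein of the small subunit, had a mean of 8664 TPM, and RPL13A, also known from the GAIT translation control complex, had 7852. At the other end, the paralog RPL39L had a mean of 5.20 TPM beside 1294 for RPL39, a protein of the exit tunnel. RPS27L had 43.5 TPM, and the muscle paralog RPL3L and the testis paralog RPL10L stayed at or below 0.16 TPM in every library. RPS18, which all ribosomes use, is listed at 0 in all 6 libraries. Its transcripts are listed at 6 genomic places, and of the 985 genes with a transcript at more than 1 place, 79.4% are at 0 in every library, against 29.3% of the others. RPL10L, RPL3L and RPS18 were among the 4 members that did not pass the expression filter, and 77 members did.

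**Figure D1:**
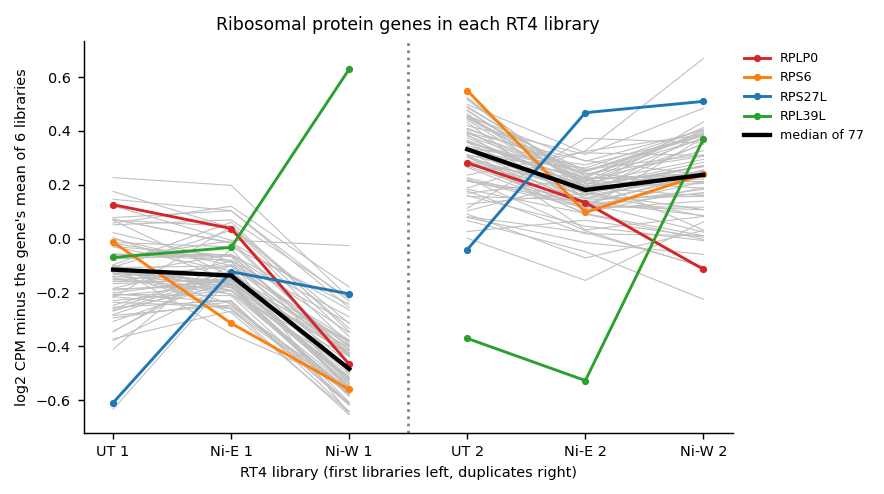
Log2 CPM of each of the 77 tested members minus its mean over the 6 RT4 libraries, with the first libraries on the left and the duplicates on the right (thin grey lines, members; black, their median; colours, named members). The members move together and lie higher in the duplicate libraries, with the lowest median in the first Ni-W library, while RPL39L goes the other way.

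The main movement of RP genes in RT4 was between the 2 libraries of a group, not between groups. The median member was higher in the duplicate than in the first library by 0.52 (log2 CPM) in UT, 0.33 in Ni-E and 0.75 in Ni-W, and 68 of 77 members were higher in the duplicate in all 3 groups. Over all 14502 genes tested, 37.4% were. In edgeR's quasi-likelihood test of the replicate number within groups, 65 of 77 members were higher in the duplicates at a Benjamini-Hochberg adjusted p below 0.05 and none was lower, beside 24.1% of all genes higher and 25.2% lower. Of the 65, 31 differed by 1.5-fold or more. In the median member, replicate number accounted for 77.9% of the variance of log2 CPM over the 6 libraries and group for 16.3%, against 48.0% and 32.0% for all genes.

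RPL24, a large subunit protein at the bridge to the small subunit, showed the widest such difference. It was at 547 CPM in the first and 947 in the duplicate UT library, 588 and 879 in Ni-E, and 475 and 991 in Ni-W. The duplicates were higher by 0.81 ± 0.10 (log2, SE), and all 3 lay above all 3 first libraries. RPLP2 of the P stalk was at 398 and 667 CPM in UT, 409 and 578 in Ni-E, and 327 and 637 in Ni-W. A few members did not share this pattern. RPL10A, RPL21, RPL41, RPS10 and RPL39L showed duplicate differences between −0.34 and 0.03 (log2).

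Transcript length moved with this difference in other genes. Among genes that are not members, the median duplicate difference was 0.59 (log2) below 500 bases, 0.57 at 500 to 1000, 0.33 at 1000 to 2000, 0.04 at 2000 to 4000 and −0.32 from 4000 bases, with a Spearman rho of −0.55 over 14425 genes of the same libraries. Members are short, with a median listed length of 852 bases against 3023 for all genes tested. Within the members the median difference was 0.57, 0.52, 0.46, 0.54 and 0.69 in the same length classes (8, 38, 15, 12 and 4 genes). Their rho with length was 0.16. The classes rest on the lengths listed in the RSEM tables, which reach 7029 bases for RPL14. Whether these are the lengths of the transcripts expressed was not checked, so the classes may misplace members. The length offset that RSEM applied was alike in the 6 libraries, at 179 to 186 bases. What part length, RNA quality or library preparation had in the difference was not tested.

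**Figure D2:**
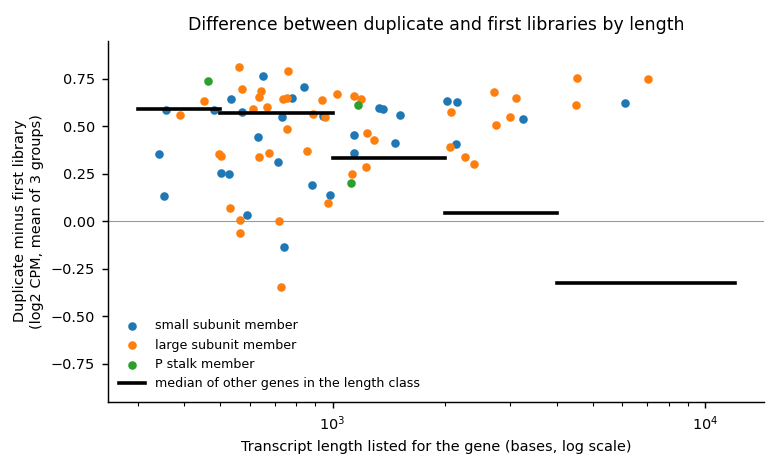
Duplicate minus first library (log2 CPM, mean of the 3 groups) against the transcript length listed for each of the 77 members (points, log axis), beside the median of other genes in 5 length classes (bars). Other genes go from 0.59 in the shortest class to −0.32 in the longest, while the member medians stay between 0.46 and 0.69.

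Over the 6 libraries the members rose and fell together. The median correlation (Pearson) of log2 CPM over the 2926 pairs of members was 0.93, while the median over all pairs of the 2196 other genes with at least 100 CPM was 0.0020. Centring each gene on its group mean gave 0.99, and centring on the mean of the first and of the duplicate libraries gave 0.88. These values describe 6 libraries that share the replicate difference above. Other short genes of high level (133 under 1000 bases with at least 100 CPM) had a median duplicate difference of 0.60 (log2). The correlation among those short genes was not computed, so the values do not show that the co-variation is particular to RP genes. Small subunit pairs had a median of 0.93, large subunit pairs 0.92 and P stalk pairs 0.78. Of the 77 members, 60 had a correlation above 0.9 with the mean of the other members. RPL39L (−0.63) and RPL21 (−0.11) were below 0, and RPL10A (0.38) and RPL41 (0.44) were also low.

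No member was called as changed with nickel in the model of the 3 groups without a block. At an adjusted p below 0.05 edgeR's quasi-likelihood test called 0 of 77 members in Ni-E vs UT, in Ni-W vs UT and in Ni-W vs Ni-E, beside 2.17%, 0.6% and 0% of all 14502 genes. At an unadjusted p below 0.05 there were 0, 2 (RPLP0 and RPL23A) and 0, beside 12.2%, 9.12% and 5.57% of all genes. DESeq2 also called 0 at the adjusted level, with 0, 2 and 0 unadjusted. The median log2 fold change of the members was −0.09 in Ni-E vs UT, −0.20 in Ni-W vs UT and −0.11 in Ni-W vs Ni-E, with 63, 71 and 72 of 77 below 0, while the median over all genes lay between −0.01 and 0.02. These medians shifted when single libraries were left out. The fits had no block, so a group left with only its first or its duplicate library carries the replicate difference above. The shifts therefore cannot show whether a direction depends on a single library. Without the first Ni-W library the medians were 0.10 in Ni-W vs UT and 0.24 in Ni-W vs Ni-E. Without the duplicate Ni-W library they were −0.60 and −0.52. Without the duplicate UT library the median was 0.16 in Ni-E vs UT and 0.03 in Ni-W vs UT, and without the first UT library −0.28 and −0.41. Leaving out the first Ni-E library gave 0.05 in Ni-E vs UT and −0.25 in Ni-W vs Ni-E, and leaving out the duplicate −0.22 and 0.07. The UT libraries enter both contrasts with UT, and these are not independent of each other.

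Because same-numbered libraries deviated together, the groups were also compared within replicate number. Between the first libraries, 74 of 77 members were lower in Ni-W than in UT with a median of −0.35 (log2 CPM), and between the duplicates 59 were lower with a median of −0.10. In all, 59 members were lower in both comparisons and 3 higher in both, against 36.3% and 33.4% of all genes. For Ni-E vs UT the medians were 0.00 and −0.16, with 40 of 77 lower in both and 8 higher in both, against 37.9% and 36.9% of all genes. For Ni-W vs Ni-E they pointed apart, at −0.36 in the first libraries and 0.06 in the duplicates, with 24 lower and 1 higher in both, against 26.5% and 25.8%.

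With the replicate number as a block, edgeR called 1 member higher and 1 lower in Ni-E vs UT, 1 higher and 6 lower in Ni-W vs UT, and 0 in Ni-W vs Ni-E. At an unadjusted p below 0.05 the block gave 6, 35 and 9 of 77 members, of which 3, 32 and 8 were lower. Over all genes the unadjusted shares were 30.4%, 25.5% and 17.9%, with 14%, 11.5% and 8.85% lower. At the adjusted level the block gave 10.4% higher and 7.4% lower in Ni-E vs UT, 7.5% and 4.18% in Ni-W vs UT, and 3.2% and 2.68% in Ni-W vs Ni-E, of all genes. Whether the share of members called differed from these backgrounds was not tested. None of the calls on members reached 1.5-fold.

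RPS27L, a paralog of RPS27 known as a target of p53, was the only member called higher. It was at 94.8 and 141 CPM in UT, 133 and 200 in Ni-E, and 125 and 206 in Ni-W. Within each replicate number both nickel groups lay above UT. The blocked log2 fold change was 0.50 ± 0.10 (SE; adjusted p = 0.00506) in Ni-E vs UT and 0.48 ± 0.10 (adjusted p = 0.00892) in Ni-W vs UT. Without the block edgeR gave 0.50 ± 0.35 (adjusted p = 0.782) and 0.49 ± 0.35 (adjusted p = 0.948). RPS27 itself was at 901 and 960 CPM in UT, 887 and 887 in Ni-E, and 691 and 855 in Ni-W, and passed in neither contrast (blocked adjusted p = 0.705 and 0.12).

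RPS6, the small subunit protein phosphorylated by the S6 kinases downstream of mTOR, was at 2197 and 3245 CPM in UT, 1782 and 2372 in Ni-E, and 1503 and 2615 in Ni-W. Both nickel groups were below UT within each replicate number. It fell by 0.37 ± 0.11 on the log2 scale in Ni-E vs UT with the block (adjusted p = 0.0374) and by 0.43 ± 0.11 in Ni-W vs UT (adjusted p = 0.0295). Without the block the adjusted p was 0.881 and 0.999. Without regard to replicate number, both nickel groups overlapped UT.

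RPLP0, the P stalk base and a common qPCR reference, was at 3590 and 3999 CPM in UT, 3377 and 3610 in Ni-E, and 2381 and 3040 in Ni-W. Its 2 Ni-W libraries were the lowest of the 6. In Ni-W vs UT it fell by 0.49 ± 0.10 on the log2 scale with the block (adjusted p = 0.00901), and without it the difference was −0.49 ± 0.19 (adjusted p = 0.531). RPLP1 and RPLP2, which attach to RPLP0 as dimers, had blocked values of −0.31 ± 0.12 (adjusted p = 0.142) and −0.17 ± 0.11 (adjusted p = 0.387).

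RPL23A, which lies at the exit of the tunnel for the growing protein, was at 713 and 737 CPM in UT, 649 and 644 in Ni-E, and 490 and 586 in Ni-W. All libraries of a group lay below those of the group before it. The blocked fall in Ni-W vs UT was 0.43 ± 0.10 on the log2 scale (adjusted p = 0.0178), and the adjusted p without the block was 0.506. RPL13A fell by 0.39 ± 0.10 (adjusted p = 0.0341) with the block. RPL15, which the rule for named genes did not take, was also called, at −0.35 ± 0.10 (adjusted p = 0.0493). Without the block the adjusted p was 0.79 for RPL13A and 0.902 for RPL15.

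**Figure D3:**
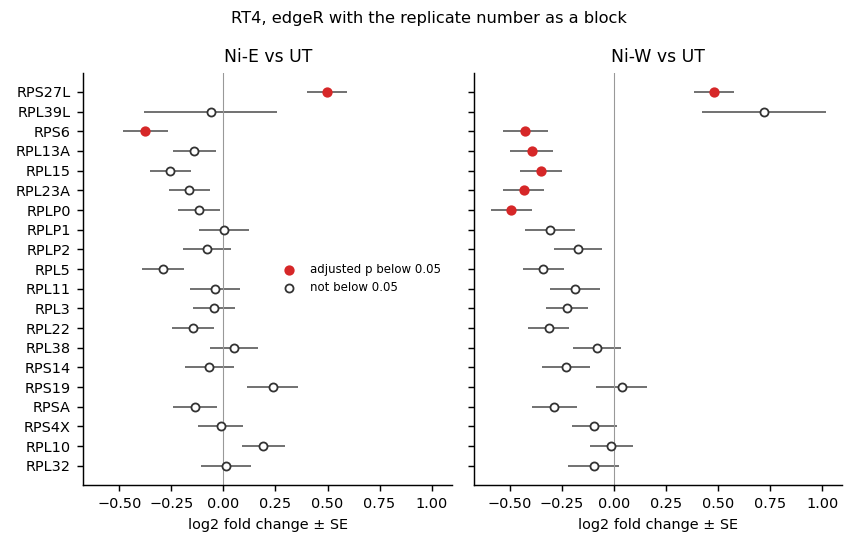
Log2 fold change ± SE of 20 members in Ni-E vs UT and Ni-W vs UT, from edgeR with the replicate number as a block; filled points have an adjusted p below 0.05. RPS27L lies near 0.5 in both contrasts, RPS6 near −0.4, and RPLP0 at −0.49 in Ni-W vs UT.

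RPL5 and RPL11, which bind MDM2 as part of the 5S RNP, did not pass. RPL5 was at 1253 and 1936 CPM in UT, 1054 and 1539 in Ni-E, and 923 and 1638 in Ni-W, with blocked adjusted p of 0.0746 in Ni-E vs UT and 0.0546 in Ni-W vs UT. RPL11 had blocked adjusted p of 0.853 and 0.376. RPL39L had the highest fold change of the 77 members in Ni-W vs UT but the lowest counts. It was at 1.45 and 1.18 CPM in UT, 1.49 and 1.06 in Ni-E, and 2.36 and 1.97 in Ni-W, so that both Ni-W libraries lay above the other 4. Its log2 fold change of 0.72 ± 0.34 did not pass (adjusted p = 0.697, and 0.162 with the block). RPL39 was at 121 and 166 CPM in UT, 144 and 199 in Ni-E, and 116 and 197 in Ni-W, with overlapping groups. RPL36A was at 226 and 399 CPM in UT, 318 and 439 in Ni-E, and 264 and 557 in Ni-W, and had the widest spread of all members. RPS14 and RPS19, both genes of bone marrow failure, RPL38, RPL22, RPL3, RPL10, RPL32, RPL41, RPSA and RPS4X did not pass in any contrast with or without the block.

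Genes that act with RP genes were taken from lists by function. In the model without block DDIT4, an inhibitor of mTOR complex 1, was the only called gene of 17 growth control genes, higher in Ni-E vs UT by 1.13 (log2; edgeR, adjusted p = 0.0379). With the block MYC (1.35) and EIF4EBP1 (0.48) were also higher in Ni-E vs UT, and all 3 were lower in Ni-W vs Ni-E (−1.52 for MYC and −0.52 for DDIT4). DDIT4 was still higher in Ni-W vs UT (0.61; adjusted p = 0.00198 with the block). Of 6 genes of p53 and ribosome stress, none passed without the block in edgeR, while DESeq2 called SESN1 and CDKN1A in Ni-E vs UT and CDKN1A in Ni-W vs UT. With it CDKN1A (0.86), SESN1 (0.71), MDM2 (0.65) and SESN2 (0.49) were higher in Ni-E vs UT, and CDKN1A (0.69) and SESN1 (0.49) in Ni-W vs UT. Among 48 ribosome assembly genes NOP2 was lower with the block in both contrasts with UT (−0.46 and −0.43) and NOP16 in Ni-W vs UT (−0.46). Among 20 other mRNAs with a TOP tract only EIF4A2 passed with the block, higher in Ni-E vs UT (0.43). Their median in Ni-W vs UT was −0.17, near the −0.20 of the members. None of 13 tested RNA polymerase I genes passed with or without the block. Of 7 related genes outside the rule, such as FAU, RPL22L1 alone passed, higher in Ni-E vs UT with the block (0.37). Of all genes, the block called 10.4% higher and 7.4% lower in Ni-E vs UT. The shares were 7.5% and 4.18% in Ni-W vs UT, and 3.2% and 2.68% in Ni-W vs Ni-E. Without the block edgeR called 2.17% of all genes in Ni-E vs UT. Whether any list differed from these shares was not tested.

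As references, RP genes varied more in CPM over the 6 libraries than other genes of high level, and less in TPM. The median coefficient of variation (CV) of CPM was 22.3% for the members, 22.04% for all genes tested, 16.0% for other genes with at least 100 CPM and 18.7% for 13 common reference genes. In TPM the order changed, with 13.0% for the members, 23.5% for all genes tested, 16.7% for other genes with at least 100 CPM and 16.1% for the reference genes. The widest gap between 2 group means was 0.24 (log2) for the median member and 0.28 for the median reference gene. It was 0.31 for the median of all genes tested and 0.21 for other genes with at least 100 CPM.

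RPL21 (6.38%), RPL26 (7.30%) and RPL10A (7.90%) had the lowest CV of CPM among the members, and RPL36A (33.4%), RPL39L (31.1%) and RPL24 (30.7%) the highest. In TPM, RPS3A was lowest at 5.67% and RPL39L highest at 39.3%. Of the members used for qPCR, RPLP0 had a CV of CPM of 16.9%, RPL13A 15.4% and RPL32 22.6%. The gap between group means was 0.49 (log2) for RPLP0, 0.40 for RPL13A and 0.11 for RPL32. Outside the members, SDHA had a CV of CPM of 4.64%, below all 77 members, and TBP 9.34%, while TFRC (56.2%) lay above all 77 and PGK1 (32.0%) above 76. ACTB (18.7%) was higher than 30 members and GAPDH (22.8%) higher than 42. With the block, GAPDH, TFRC, HPRT1 and PGK1 passed the test in Ni-E vs UT and HPRT1 and B2M in Ni-W vs UT, all higher. In Ni-W vs Ni-E B2M was higher (0.39) and TFRC (−0.69) and PGK1 (−0.52) lower. Of all genes, the block called 10.4% higher and 7.4% lower in Ni-E vs UT. The shares were 7.5% and 4.18% in Ni-W vs UT, and 3.2% and 2.68% in Ni-W vs Ni-E. DESeq2 and edgeR without the block called none of the 13. TUBB, another common reference, had at most 9 counts in a library and was not tested.

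**Figure D4:**
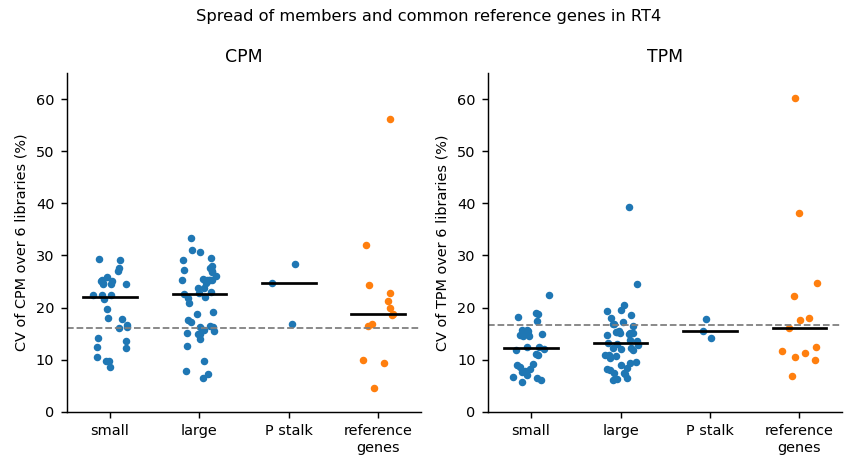
Coefficient of variation over the 6 RT4 libraries of CPM (left) and TPM (right) for small subunit, large subunit and P stalk members and 13 common reference genes (points; black bars, medians; dashed line, median of other genes with at least 100 CPM). Members lie mostly above the dashed line in CPM and below it in TPM.

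In BEAS-2B cells, RP promoters carried H3K4me3 well above the typical promoter. The median level over the 79 members was 9.13 RPKM (reads per kilobase scaled to the depth of the library) in UT, 10.2 in Ni-E and 5.12 in Ni-W cells, within 2 kb of the start on each side, against 1.57, 1.39 and 1.12 RPKM over all 26237 promoters. The members were nearer to other marked promoters. The 7381 others with a mean of 5 RPKM or more, taken by level, had medians of 8.46, 8.1 and 4.99 RPKM. Promoters of 20 other mRNAs with a TOP tract had a median of 9.29 RPKM in UT. In UT cells 76 of the 79 were above the median of all promoters and 37 in the top 10%. RPL26 was the highest at 16.0 RPKM (95% Wilson interval 15.3 to 16.8), followed by RPL8 (14.2). Of the 3 members under 1 RPKM in all 3 libraries, RPL10L was at 0.167 RPKM and RPL3L at 0.097 in UT, beside a floor of 3 reads at 0.0264 RPKM. Above these the lowest were RPL39L (4.65, interval 4.27 to 5.06), RPL36A (5.04) and RPS4X (5.28). Another listed gene, often a small nucleolar RNA in an intron, starts within 4 kb of 46 of the 79. The intervals and floors cover counting error only.

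For differences, the chromatin dynamic score of the study was used (each RPKM is divided by the median of its library and the square roots are subtracted, the second-named condition from the first-named). In Ni-E vs UT all 76 members with at least 1 RPKM in a library had a score above 0. The median over the 79 was 0.24, against 0.10 for 7381 other promoters whose mean was 5 RPKM or more, of which 88.3% were above 0. A promoter at the median level had a counting error of ± 0.10 on this score (95%). Without scaling to the library median, 70 of 76 had a higher RPKM in Ni-E than in UT, against 28.3% of the other promoters. The increase was small, and 0 of 76 members were past 1.5-fold, beside 0.847% of 13935 promoters higher and 0.567% lower. RPS2 had the highest score, 0.49, from 9.08 RPKM (8.54 to 9.65) in UT to 11.7 (11.1 to 12.2) in Ni-E, and RPS28 (0.44), RPL13 (0.41) and RPL3 (0.40) followed. The lowest were RPL39L (0.00) and RPS27L (0.03), the paralogs, and RPS20 (0.09). With quantile normalization the median was 0.13 for members and 0.00 for the other promoters, with 75 of 79 above 0.

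In Ni-W vs UT the scores of most members lay below 0, with a median of −0.31 and 7 of 76 above 0. The other promoters whose mean was 5 RPKM or more had a median of −0.26, with 17.97% above 0. With quantile normalization 24 of 79 members were above 0 (median −0.11), against 41.54% of these promoters. Scaled by the median of promoters with at least 1 RPKM, 28 of 76 were (median −0.04), against 47.22%. The Ni-W library held 22.9% of its reads in promoters, against 37.6% in UT. Past 1.5-fold of the scaled RPKM were 13 of 76 members lower and 0 higher, beside 18.4% and 4.36% of 14059 promoters. This count depends on the scaling. Without median scaling 66 members were lower, beside 10007 of 14059 promoters, and with quantile normalization 1, beside 700 of 14053. For Ni-W vs Ni-E, with a median of −0.55, 48 of 76 members were past 1.5-fold lower and 0 higher, beside 30.5% and 4.04% of 13965 promoters. With quantile normalization 7 members were lower and 1 higher, beside 806 and 1192 of 14070 promoters. The contrasts share libraries and are not independent.

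Among the lowest scores in Ni-W vs UT were those of RPL10A (−0.64), RPL8 (−0.62) and RPS6 (−0.61). RPL10A went from 12.5 RPKM (11.9 to 13.2) in UT and 13.3 (12.7 to 13.9) in Ni-E to 5.33 (4.93 to 5.76) in Ni-W. RPL4 had the highest, 0.32, at 10.2 RPKM (9.65 to 10.8) in UT, 11.8 (11.2 to 12.3) in Ni-E and 9.23 (8.70 to 9.79) in Ni-W. It thereby moved from the 92.5th percentile of promoters in UT to the 99th in Ni-W. RPL21 (0.31), RPL24 (0.24), RPLP1 (0.20), RPS27L (0.19), RPS27 (0.15) and RPS29 (0.01) were the others above 0. RPLP0 was at 10.0, 10.8 and 5.25 RPKM in UT, Ni-E and Ni-W, with a score of −0.36 in Ni-W vs UT. All 76 had a lower unscaled RPKM in Ni-W than in UT, as did 97.67% of the other promoters with a mean of 5 RPKM or more.

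Scores of members in Ni-W vs UT went with those of their chromosome neighbourhood. RPL4, RPLP1 and RPS27L, all on the long arm of chromosome 15, were among the 7 above 0, and the other promoters within 5 Mb of each had medians of 0.09, 0.09 and 0.10. For RPL21 on chromosome 13 the neighbours had a median of 0.12. For RPS6 on chromosome 9 it was −0.57. Over the 76 members, the score and the median of the neighbours (1 to 113 promoters of 5 RPKM or more, 4 kb or more away) had a Pearson r of 0.68 and a Spearman rho of 0.63, in the same 2 libraries, and neighbours of nearby members overlap. For Ni-E vs UT r was 0.11, and 74 members exceeded their neighbours, by 0.14 in the median. For Ni-W vs UT 36 of 76 did. The neighbourhood comparison was chosen after seeing the data. RPL36A on the X chromosome lay apart from its neighbours, at −0.31 with 4 neighbours at 0.25.

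**Figure D5:**
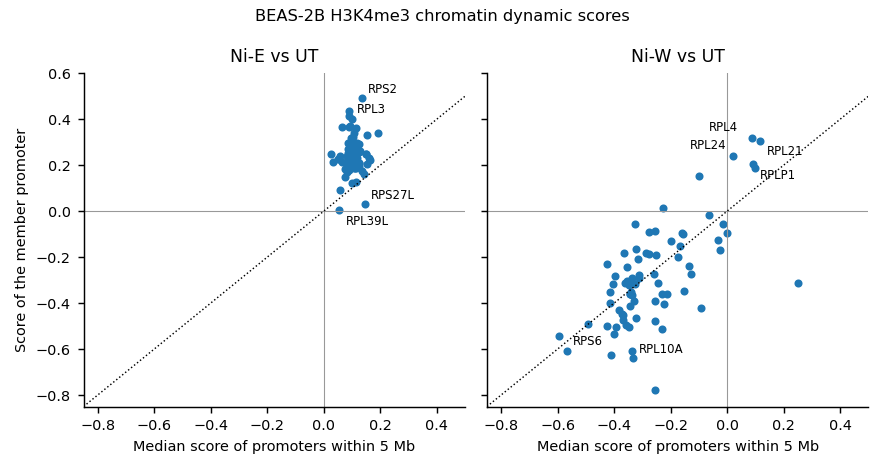
Chromatin dynamic score of the 76 member promoters with at least 1 RPKM (vertical) against the median score of other promoters within 5 Mb (horizontal), for Ni-E vs UT and Ni-W vs UT; the dotted line marks equality. In Ni-E vs UT the members lie above the line in 74 of 76 cases, and in Ni-W vs UT they spread along it.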

How the data were processed

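RNA-Seq values of 6 RT4 libraries and H3K4me3 ChIP-Seq values of 3 BEAS-2B libraries were analysed, and 2 input samples were not analysed here. The members and gene lists were chosen with earlier results of these data known. Estimated counts, TPM and FPKM were deposited by the authors as RSEM gene tables, made from TruSeq libraries. The aligner and build behind these tables are not given in the sources used here (the study describes STAR and hg19), and FPKM were not used. RPKM were deposited by the authors for windows of 2 kb on each side of transcript starts, after BWA alignment to hg38 and removal of redundant reads. The remaining deposited columns (lengths and identifiers) are as the authors gave them.

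Groups and replicate numbers come from the sample titles. The methods of the study call the 2 RNA samples of a group biological replicates, without saying whether they were separate cultures, so p-values measure the spread between these libraries. Estimated counts were rounded and tested in edgeR 4.0.16 (quasi-likelihood, TMM, filterByExpr, 14502 genes, Benjamini-Hochberg), as 3 groups without a block. DESeq2 1.42.0 and a replicate block were alternatives. Deviations from group means correlated between same-numbered libraries at 0.592 to 0.701 over all genes, so the numbers from the titles were taken as pairing the libraries. The differences between duplicate and first libraries, and those within replicate numbers, were added after seeing the data. The fits were tested on simulated data. Wilson intervals (95%) rest on reads recovered from RPKM, of which 100% were whole within 0.1 read. Named genes were the called members (at most 5 per direction and contrast), a list of well-known members, and those with extreme levels, CV or scores. Values of some members are not reported here by name, and they remain in the counts and medians.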

Additional observations from a re-analysis of the deposited data

How the results depend on the processing

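Of 1479 fold changes of named members under these alternatives, 1471 stayed on the same side of the threshold. The other 8 were called with the replicate block, which changed the counts called from 0 to 1 higher and 1 lower in Ni-E vs UT and to 1 higher and 6 lower in Ni-W vs UT. It changed no count in Ni-W vs Ni-E. Fits with 1 library left out had no block, so the difference between duplicate and first libraries enters them. With 1 library left out in turn, the median log2 fold change of the members ran from −0.283 to 0.158 in Ni-E vs UT, from −0.595 to 0.0961 in Ni-W vs UT and from −0.522 to 0.239 in Ni-W vs Ni-E. Of the estimated counts, members held 9.35% (UT), 8.61% (Ni-E) and 7.92% (Ni-W), and of TPM without the 5 highest members 18.5%, 17.8% and 16.6%. For H3K4me3, the medians in Ni-E vs UT, Ni-W vs UT and Ni-W vs Ni-E were 0.105, −0.768 and −0.92 without scaling, and 0.126, −0.112 and −0.248 with quantile normalization. Scaled by promoters of at least 1 RPKM they were 0.0696, −0.0382 and −0.108, and by those with a mean of at least 5 RPKM 0.0609, −0.0449 and −0.105. As log2 ratios the last 2 were −0.496 and −0.679. Past 1.5-fold in Ni-W vs UT, 66 members were lower without scaling, 21 as log2 ratios, and 1 with quantile normalization or either restricted median, with 2 higher under both restricted medians. Of all promoters, 10007 of 14059 were lower without scaling, 2605 of 14059 as log2 ratios and 700 of 14053 with quantile normalization. With the 1 RPKM restriction 339 of 14059 promoters were lower and 1357 higher, and with the 5 RPKM restriction 107 and 375 of 7454. In Ni-W vs Ni-E, 7 members were lower with quantile normalization, 3 with the 1 RPKM and 7 with the 5 RPKM restriction, with 1 higher in each. In the same order, 806 of 14070, 321 of 13965 and 137 of 7454 promoters were lower, and 1192, 1501 and 363 higher. Of 234 scores of named promoters under the alternatives, 172 moved by more than the counting error of a promoter at the median level. Several alternatives change the divisor or the unit of the score, so this count does not measure its stability. What else moved the scores was not tested. RT4 has 2 libraries per group, and with 1 per condition in BEAS-2B the spread between replicates could not be measured there.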

Other observations

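The mitochondrial ribosome, which is built from a separate set of proteins, shared the difference between duplicate and first libraries. Of 77 tested mitochondrial RP genes, 50 were higher in the duplicates and 2 lower (edgeR's quasi-likelihood test with Benjamini-Hochberg adjustment), with a median of 0.43 (log2), beside 24.1% and 25.2% of all genes. In the nickel contrasts none passed without the block, at an unadjusted p below 0.05 as well, and DESeq2 called none. With the block MRPL16 (−0.64), MRPS34 (−0.43) and MRPL49 (−0.38) were lower and MRPL39 (0.47) higher in Ni-E vs UT. Of all genes, 7.4% were lower and 10.4% higher in that fit. Among the other lists, 24 of 48 ribosome assembly genes were higher in the duplicates and 10 lower, and of 20 other mRNAs with a TOP tract 9 and 4.

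In BEAS-2B cells the median H3K4me3 score in Ni-E vs UT was 0.14 for mitochondrial RP genes, 0.19 for other TOP mRNAs, 0.20 for ribosome assembly genes and 0.12 for 13 common reference genes, beside 0.24 for the cytoplasmic RP genes. These values come from single libraries and the lists were not tested against each other. The H3K4me3 level in UT BEAS-2B cells and the mean TPM in RT4 cells, different cell lines, were also compared across genes. The Spearman rho was 0.14 over 76 cytoplasmic RP genes, all with a mean over 1 TPM and at least 1 RPKM in a library. It was 0.66 over 24578 other genes, which were not limited by level and include silent genes. The 2 values cover unlike ranges and cannot be set against each other.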
